A study of Mus musculus with 6 samples.

Results

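Collagens are the proteins that give connective tissue its tensile strength, and 44 mouse genes encode their chains among the 35411 genes that could be named in these data. The members are the protein-coding genes of the GENCODE M21 annotation whose symbol is Col, a type number, the letter a and a chain number. They comprise 11 fibrillar collagens, 8 collagens of basement membranes and 25 others. RNA was sequenced from fetal hearts of FVB/NJ wild-type mice, pooled over both sexes. The dams were 10 weeks old, and 14 of them entered the study. In the nano-TiO2 group they inhaled an aerosol of engineered titanium dioxide nanoparticles in a whole-body chamber at a target of 12 mg/m3, for 360 minutes a day on 6 non-consecutive days out of 8, from gestational day 5. In the sham group they breathed filtered room air. Hearts were collected at gestational day 15. There were 3 libraries per group, and all 6 are the inputs of an immunoprecipitation study, taken after RNA fragmentation and before any antibody. How many litters or hearts each pool held is not given in the sources used here, so p-values measure the spread between these pools. Heart muscle genes were abundant, and the cardiac myosin gene Myh6 lay between 2543 and 3277 CPM in all 6 libraries. CPM is the count of reads scaled to a common library size, here with TMM, a factor that sets the typical gene equal between libraries.

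A collagen molecule is a helix of 3 chains, built of triplets of residues that each start with glycine, the one amino acid small enough to face the axis. Fibrillar collagens (types I, II, III, V and XI) assemble into banded fibrils and have long unbroken helices. Type IV collagen forms the network of basement membranes and has a helix broken by many interruptions, which make it flexible. In the developing heart fibroblasts, valve and epicardium-derived cells make most of the fibrillar collagen, and endothelial, mural and muscle cells contribute to the basement membrane.

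The glycine repeat is legible in the RNA, because glycine codons are GG followed by any base, and its unbroken length sets the fibrillar class apart. The stretches below, read from GENCODE M21 coding sequences of the leading transcript on the coding strand, show the unbroken repeat of the most abundant fibrillar chains beside interruptions in Col4a2 and Col4a5, the more abundant of the type IV chains that were called lower and higher in nano-TiO2 hearts. Capitals mark the glycine codon of each triplet of codons. For Col1a1 and Col3a1 the 90 bases start after 100 triplets of the longest run. For Col4a2 and Col4a5 they hold the last 4 triplets of the longest run, the interruption and the first 4 triplets of the next run.
Col1a1: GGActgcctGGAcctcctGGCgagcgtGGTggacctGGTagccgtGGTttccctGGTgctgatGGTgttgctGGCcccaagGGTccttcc
Col3a1: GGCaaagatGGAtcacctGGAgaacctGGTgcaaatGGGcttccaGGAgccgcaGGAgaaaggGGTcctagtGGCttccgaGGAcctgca
Col4a2: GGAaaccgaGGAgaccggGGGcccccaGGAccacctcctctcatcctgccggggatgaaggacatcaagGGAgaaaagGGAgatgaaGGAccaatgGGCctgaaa
Col4a5: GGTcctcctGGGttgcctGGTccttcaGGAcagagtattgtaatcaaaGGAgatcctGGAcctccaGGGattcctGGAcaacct

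The longest run held 338 triplets in Col1a1 and 344 in Col3a1, and between 337 and 344 in the 9 fibrillar genes other than Col24a1 and Col27a1, which held 216 and 217. In the 6 type IV chains the longest run held 39 to 66 triplets, and the repeat was split into 22 to 27 runs of at least 5 triplets. The interruption shown spans 11 codons in Col4a2 and 4 codons in Col4a5. The GC content of the repeat was 65.4% in Col1a1, 61.0% in Col3a1, 63.2% in Col4a2 and 57.7% in Col4a5, and it ranged from 57.3% to 70.3% over all 44 genes. That of the transcripts was 58.9%, 52.3%, 60.6% and 49.8% for these 4 genes in the same order.

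The libraries held 12881945 to 22720009 estimated reads, and collagen genes took between 0.361% and 0.578% of the reads matched to genes. Haemoglobin transcripts took 5.68% to 23.4%. Levels were compared between genes in TPM, which corrects for transcript length. On that scale Col3a1, Col1a1 and Col1a2 stood highest, in that order, over the 6 libraries and together made up 51.5% to 58.9% of the collagen total of a library. Col4a2, Col18a1 and Col4a1 came next. All 44 genes had at least 1 read in some library, and 37 passed the filter on low counts and were tested among 13928 genes.

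Between the groups 4 of the 37 tested collagens were called higher in nano-TiO2 hearts and 3 lower, at an adjusted p under 0.05 with edgeR's quasi-likelihood test and Benjamini-Hochberg adjustment over all tested genes. That is 18.9% of the tested collagens, against 28.2% of all tested genes, of which 15.5% were called higher and 12.8% lower. Among the higher calls, Col7a1 passed the filter on low counts only through its nano-TiO2 libraries. The median log2 fold change of the tested collagens was 0.14, beside -0.01 over all tested genes. The groups did not overlap in CPM for 15 of the 37, or 40.5%, against 45.7% of all tested genes. Of these, 9 of the 37 were higher in nano-TiO2 hearts and 6 lower, while the background was 23.3% and 22.4% of all tested genes. Over both directions together, neither the 18.9% called nor the 40.5% without overlap lay above its background. Higher and lower here are relative to the typical gene of a library. With library totals as the scale, the median gene itself was 0.41 higher in nano-TiO2 hearts on the log2 scale, and on log2(TPM + 1) it was 0.47 higher, so that a value above 0 there can still lie below the typical gene. With library totals 11 collagens were called higher and 0 lower, beside 31% of all tested genes called, 30.7% higher and 0.359% lower. Of the collagens 14 passed 0.05 before adjustment, all 14 of them higher. In pooled hearts a change in the number of collagen-making cells and a change in collagen RNA per cell cannot be told apart.

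**Figure D1:**
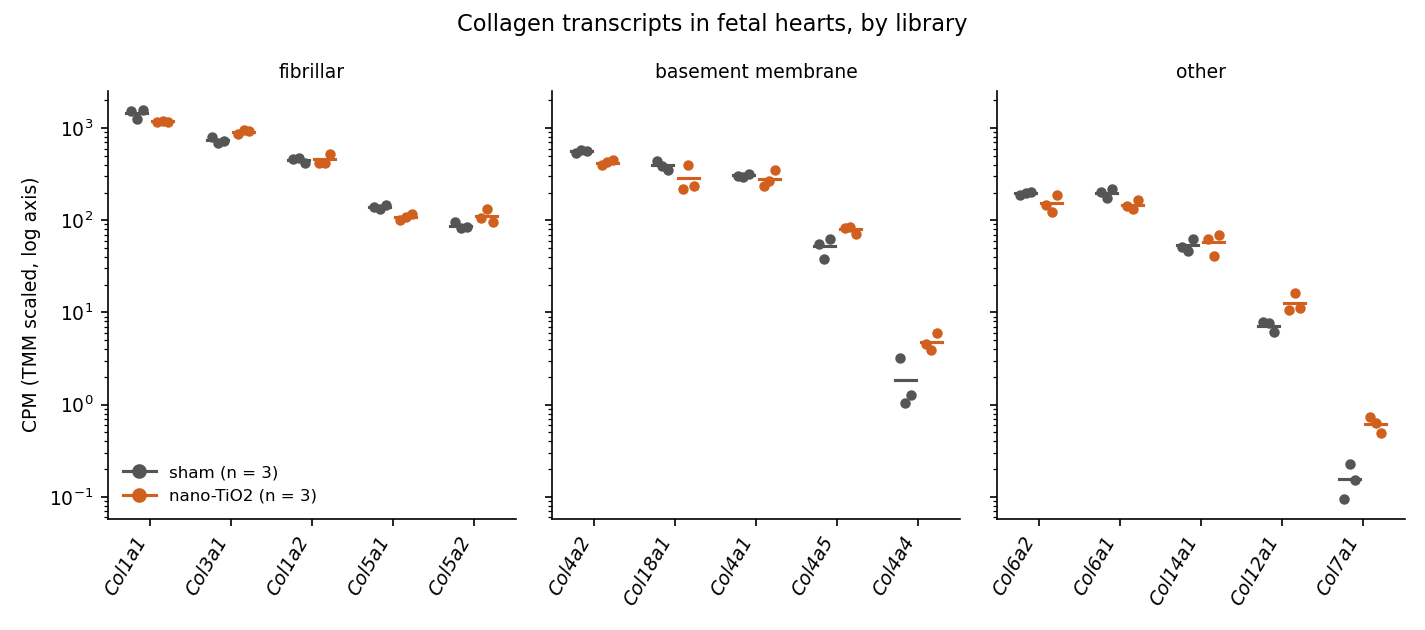
CPM (TMM scaled, log axis) of the 15 collagens that were called or averaged at least 50 CPM, with a point for each library and a bar for the mean of 3. The sham and nano-TiO2 points of Col4a2, Col5a1 and Col6a1 are apart in CPM with nano-TiO2 lower, while they overlap in TPM, and those of Col4a4, Col4a5, Col12a1 and Col7a1 are apart with nano-TiO2 higher.

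Among the fibrillar collagens 1 of 11 was called, or 9.09%, against 28.2% of all tested genes. It was Col5a1, which was lower than in sham hearts relative to the typical gene, and 0 were called higher. The unadjusted p under 0.05 gave 3 of the 11 higher and 2 lower, beside 3040 higher and 2815 lower of all 13928 tested genes. The class median was a log2 fold change of 0.21. Col1a1, the main chain of type I collagen, had 1535, 1241 and 1573 CPM in sham hearts and 1165, 1196 and 1178 CPM in nano-TiO2 hearts. All sham libraries lay above all nano-TiO2 libraries, but the log2 fold change of -0.30 ± 0.13 (SE, n = 3 per group) did not pass edgeR's test (adjusted p = 0.119). Col3a1, which encodes type III collagen, the partner of type I in pliable tissue, went the other way. It had 799, 696 and 719 CPM in sham hearts and 865, 964 and 920 CPM in nano-TiO2 hearts. The groups did not overlap here either, and the log2 fold change was 0.31 ± 0.12 (SE), with an adjusted p of 0.077 from edgeR. In the reads recovered from the table of the whole series, the same test gave 0.41 and an adjusted p of 0.036 for Col3a1. Col1a2, the other chain of type I collagen, was near level, with 464, 478 and 418 CPM against 422, 421 and 528 CPM and a log2 fold change of 0.01 ± 0.13 (SE) at an adjusted p of 0.963 by edgeR.

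Type V collagen nucleates the fibrils of type I. Its chains Col5a1 and Col5a2 differed in direction in this fit, though not once the length and GC trend described below was removed. Col5a1 had 139, 131 and 145 CPM in sham hearts and 101, 108 and 116 CPM in nano-TiO2 hearts. The groups were apart, and edgeR gave -0.36 ± 0.11 on the log2 scale (SE, adjusted p = 0.0485). On the log2(TPM + 1) scale it was 0.21, not past the test and below the 0.47 of the median gene. Col5a2 had 96.6, 81.5 and 84.3 CPM in sham hearts and 107, 132 and 96.9 CPM in nano-TiO2 hearts. Its groups were narrowly apart with nano-TiO2 higher, and its log2 fold change of 0.35 ± 0.15 (SE) missed the threshold (adjusted p = 0.106 by edgeR). Col5a3, another chain of type V, stayed at 0.437 to 1.82 CPM with overlapping groups.

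The remaining fibrillar genes were low. Col24a1 had 0.709, 0.224 and 0.458 CPM in sham hearts and 1.52, 1.25 and 0.992 CPM in nano-TiO2 hearts, groups apart, with an adjusted p of 0.066 from edgeR. Col11a1 lay between 2.09 and 6.25 CPM, Col11a2 between 0.364 and 1.42 CPM and Col27a1 between 2.34 and 6.33 CPM, and in each the groups overlapped. Col2a1, the collagen of cartilage, is described with type IX.

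Of the 8 basement membrane collagens 7 were tested, 2 were called higher and 1 lower, and the median log2 fold change was -0.11. The share called was 42.9%, against 28.2% of all tested genes, but it is a share of only 7 genes. Col4a1 and Col4a2 encode the chains of the common type IV network and lie head to head in the genome, with exons that overlap by 22 bases on opposite strands, where reads cannot be assigned without the strand setting. Col4a2 had 538, 578 and 568 CPM in sham hearts and 397, 424 and 446 CPM in nano-TiO2 hearts. All nano-TiO2 libraries lay below all sham libraries, with a log2 fold change of -0.41 ± 0.11 (SE) and an adjusted p of 0.028 by edgeR. In library totals Col4a2 was level (0.01), and on the log2(TPM + 1) scale it was 0.26, not past the test and below the 0.47 of the median gene. Col4a1 had 300, 298 and 321 CPM against 236, 265 and 348 CPM. Its nano-TiO2 libraries spread across the sham range, and edgeR gave -0.11 ± 0.15 (SE, adjusted p = 0.618).

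Col4a5 and Col4a6 encode chains of the network of smooth muscle and epithelial basement membranes, and Col4a3, Col4a4 and Col4a5 that of the kidney glomerulus, where their mutation causes Alport syndrome. Col4a5 had 55.6, 37.9 and 63.4 CPM in sham hearts and 83.1, 84.9 and 70.5 CPM in nano-TiO2 hearts. Nano-TiO2 was higher in every library, with a log2 fold change of 0.60 ± 0.19 (SE) and an adjusted p of 0.0485 by edgeR. Col4a4 had 3.21, 1.05 and 1.27 CPM against 4.55, 3.94 and 5.95 CPM, again apart, with a log2 fold change of 1.36 ± 0.44 (SE) and an adjusted p of 0.0480 by edgeR. These values rest on 107 reads in the sham libraries together and 282 in the nano-TiO2 libraries. Col4a6 lay between 8.96 and 24.1 CPM with overlapping groups. Col4a3 was not tested, with 2 to 32 estimated reads per library, the most in nano-TiO2 library 3.

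The multiplexins Col15a1 and Col18a1 sit at the border of basement membrane and stroma, and their C-terminal ends are released as restin and endostatin. Col18a1 had 444, 389 and 354 CPM in sham hearts and 220, 398 and 235 CPM in nano-TiO2 hearts. Nano-TiO2 library 2 lay within the sham range and the other nano-TiO2 libraries below it, and the log2 fold change of -0.48 ± 0.23 (SE) did not pass (adjusted p = 0.145 by edgeR). Without nano-TiO2 library 2 it was -0.80 and passed (adjusted p = 0.0092 by edgeR). Col15a1 overlapped, at 36.1 to 55.2 CPM in sham and 24.1 to 46.4 CPM in nano-TiO2 hearts.

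Among the other collagens 19 of 25 were tested, 2 were called higher and 1 lower, and the median log2 fold change was 0.14. The share called was 15.8%, against 28.2% of all tested genes. Type VI collagen forms beaded filaments around cells. Its Col6a1 chain had 205, 175 and 219 CPM in sham hearts and 143, 132 and 165 CPM in nano-TiO2 hearts, groups apart, with a log2 fold change of -0.44 ± 0.14 (SE) and an adjusted p of 0.043 by edgeR. On the log2(TPM + 1) scale Col6a1 was 0.22, not past the test and also below the median gene. Col6a2 was apart in the same direction, with 190, 198 and 202 CPM against 146, 124 and 189 CPM and a log2 fold change of -0.36 ± 0.16 (SE), but did not pass (adjusted p = 0.123 by edgeR). Col6a3, the longest of the 3 main chains, had 35.1, 32.8 and 33.5 CPM against 36.7, 34.3 and 50.7 CPM, and its groups overlapped. Col6a5 and Col6a6, which can replace that chain, lay at 0.356 to 1.09 CPM and 11.2 to 14.2 CPM with overlapping groups.

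The fibril-associated collagens bind to the surface of fibrils and interrupt their own helices. Col12a1, a collagen of load-bearing tissue, had 7.80, 7.71 and 6.11 CPM in sham hearts and 10.6, 16.4 and 11.1 CPM in nano-TiO2 hearts. All nano-TiO2 libraries were higher, with a log2 fold change of 0.82 ± 0.23 (SE) and an adjusted p of 0.032 by edgeR. Its relative Col14a1 was more abundant and did not separate, with 51.4, 45.9 and 63.1 CPM against 62.5, 41.0 and 69.6 CPM and a log2 fold change of 0.11 ± 0.21 (SE) at an adjusted p of 0.731 by edgeR. Col16a1 lay at 31.9 to 37.2 CPM in sham and 21.9 to 30.8 CPM in nano-TiO2 hearts, groups apart, and did not pass (adjusted p = 0.114 by edgeR).

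Col7a1, the anchoring fibril that ties the epidermis to the dermis, was also called higher, at the edge of detection. It had 0.0945, 0.224 and 0.153 CPM in sham hearts and 0.729, 0.625 and 0.496 CPM in nano-TiO2 hearts. The log2 fold change was 1.97 ± 0.56 (SE, adjusted p = 0.032 by edgeR), from 8 estimated reads in the sham libraries together and 34 in the nano-TiO2 libraries. The ratio of those sums, scaled to library size, was 4.06 with an exact 95% interval of 1.85 to 10.2 that covers counting error alone. By library the reads were 2, 3 and 3 in sham and 12, 10 and 12 in nano-TiO2 hearts. Col7a1 thus passed the filter on low counts only through the group where it was high. Its call and this interval are therefore not independent of that direction. The stricter filter, with a mean of at least 10 reads, left Col7a1 out. The 6 surface epithelium markers, with keratins among them, summed to 5.24 to 47.0 CPM in sham and 3.28 to 34.2 CPM in nano-TiO2 hearts, and 0 of them were called. The transmembrane collagens were not called. Of these, Col25a1 had 1.84, 1.57 and 0.458 CPM against 2.19, 2.44 and 3.43 CPM with groups apart (adjusted p = 0.142 by edgeR), and Col13a1, Col17a1 and Col23a1 overlapped. The short-chain collagens Col8a1 and Col8a2 of vessel walls were not called either. Col26a1 lay between 14.6 and 40.1 CPM, and its groups overlapped.

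The 7 collagens that were not tested were at or near the limit of detection, and none was at 0 in all 6 libraries. Col10a1, the collagen of hypertrophic cartilage, had 0 or 1 reads in each library, Col19a1 0 to 3 and Col20a1 0 to 7. Col28a1 had 0 reads in all 3 sham libraries and 1, 1 and 5 reads in the nano-TiO2 libraries. A count of 0 allows up to 0.142, 0.224 and 0.153 CPM in sham libraries 1, 2 and 3. Col6a4 had 3 to 13 reads and Col22a1 4 to 23. No fold change is given for these genes.

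The cartilage-type collagens differed between single libraries far more than between groups. Col2a1 had 16.4, 10.7 and 2.80 CPM in sham hearts and 1.28, 34.7 and 2.36 CPM in nano-TiO2 hearts, with an adjusted p of 0.865 from edgeR. Col9a1, a chain of the type IX collagen that decorates type II fibrils, had 4.63, 3.97 and 1.73 CPM against 1.52, 16.6 and 3.43 CPM. Both were highest in nano-TiO2 library 2 and lowest in nano-TiO2 library 1. Col9a2 ranged from 5.10 to 17.7 CPM and Col9a3 from 1.94 to 11.7 CPM, with the same highest and lowest libraries. Exons of Col9a3 share 234 bases with Tcfl5 on the opposite strand, a gene with 0 to 3 estimated reads per library. Of the 8 cartilage markers, Hapln1, a link protein that is also part of cardiac jelly, was highest in nano-TiO2 library 2 as well, at 9.37 CPM against 1.88 to 3.40 CPM elsewhere, as was Sox9, at 114 CPM against 52.8 to 78.0 CPM. Acan stayed at 0.496 to 1.87 CPM, and Matn1 and Snorc each had 0 reads in 4 of the 6 libraries. Summed over the list, cartilage markers lay between 58.4 and 78.2 CPM in sham and between 71.2 and 127 CPM in nano-TiO2 hearts. Sox9 made up 89.8% to 94.9% of that sum, and the other 7 markers together lay at 5.65 to 7.32 CPM and 3.95 to 12.9 CPM. Comp and Cnmd were highest in sham library 1, at 2.13 and 0.662 CPM, and Matn3 in nano-TiO2 library 3, at 0.331 CPM. The lung surfactant gene Sftpc, a sign of neighbouring lung tissue, was highest in nano-TiO2 library 3, at 1394 CPM, where Col2a1 had 2.36 CPM. The order of Sftpc and Col2a1 thus differed over all 6 libraries. Over the other 5 libraries it had the same order as Col2a1, with 260 CPM in nano-TiO2 library 2, 129, 19.5 and 12.3 CPM in sham libraries 1, 2 and 3, and 0.304 CPM in nano-TiO2 library 1. The part of other tissue in the type II and IX values was not tested.

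**Figure D2:**
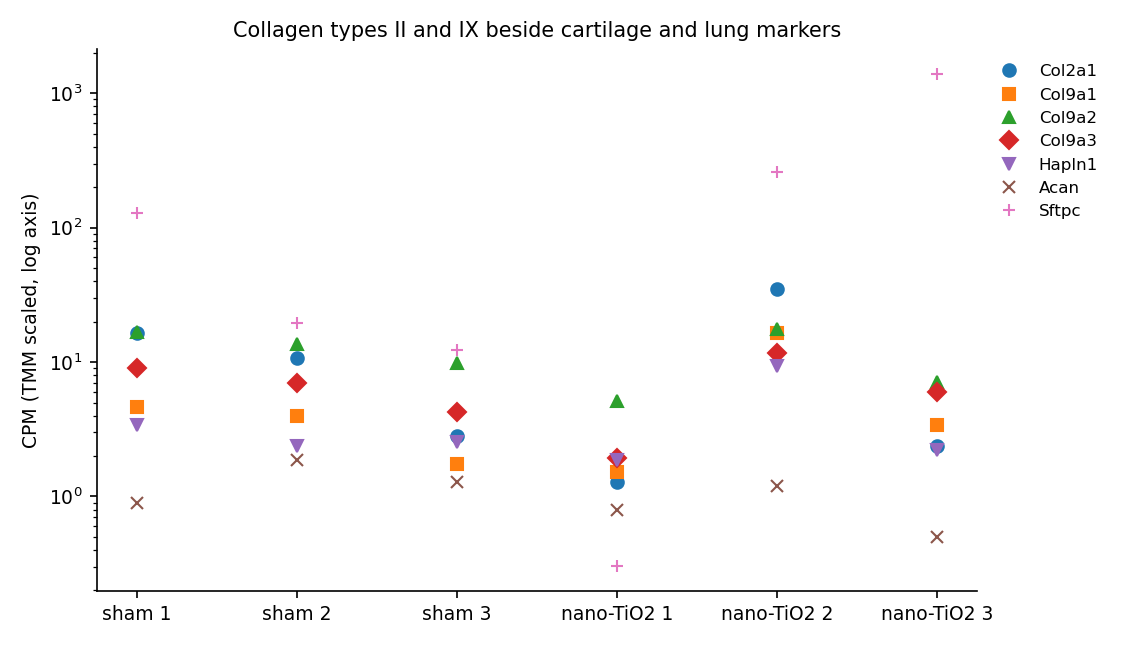
CPM (TMM scaled, log axis) of Col2a1 and the type IX collagens in each of the 6 libraries, beside the cartilage markers Hapln1 and Acan and the lung marker Sftpc, with a point for each gene and library. The collagens peak together in nano-TiO2 library 2, where Col2a1 reached 34.7 CPM, and Sftpc peaks in nano-TiO2 library 3.

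Chains that join in one fibril or network can be set against each other within a library, which removes any common scale. The TPM ratio of Col3a1 to Col1a1 was 0.772, 0.906 and 0.683 in sham hearts and 1.12, 1.16 and 1.33 in nano-TiO2 hearts, or 0.787 ± 0.113 against 1.20 ± 0.112 (SD, n = 3 each). The groups did not overlap, and in TPM Col1a1 led in every sham heart pool and Col3a1 in every nano-TiO2 pool. In CPM, which is not corrected for length, the ratio was 0.520, 0.561 and 0.457 in sham hearts and 0.743, 0.806 and 0.781 in nano-TiO2 hearts. The groups were apart there too, but Col1a1 led in every library, so the change of the leading chain depends on the scale. The ratio of Col5a2 to Col5a1 was 0.604 ± 0.0593 in sham and 1.03 ± 0.301 in nano-TiO2 hearts (SD, n = 3 each), without overlap. Col4a5 to Col4a2 went from 0.110 ± 0.0244 to 0.225 ± 0.0258 and Col6a3 to Col6a1 from 0.143 ± 0.0231 to 0.280 ± 0.0353 (SD, n = 3 each), both without overlap. Col4a2 to Col4a1 was 1.17 ± 0.0106 in sham and 1.02 ± 0.165 in nano-TiO2 hearts (SD, n = 3 each), apart by a narrow margin. The ratios of Col1a1 to Col1a2 and of Col6a1 to Col6a2, chains of the same molecule, overlapped between the groups, as did those of Col4a6 to Col4a5 and Col4a4 to Col4a3. With 3 libraries against 3 an exact two-sided permutation test cannot go below 0.1, so the ratios are given without a test. In the ratios without overlap the chain that gained had the lower GC content, by 6.6 percentage points for Col3a1 against Col1a1, 8.3 for Col5a2 against Col5a1, 10.8 for Col4a5 against Col4a2, 2.9 for Col6a3 against Col6a1 and 3.1 for Col4a1 against Col4a2. It had the longer transcripts for Col6a3 against Col6a1 (8291 and 4100 bases) and the shorter ones in the other pairs without overlap. Between the chains whose ratios overlapped, GC content differed by 3.3 points for Col1a1 against Col1a2, -3.0 for Col6a1 against Col6a2, 3.9 for Col4a6 against Col4a5 and 1.0 for Col4a4 against Col4a3.

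**Figure D3:**
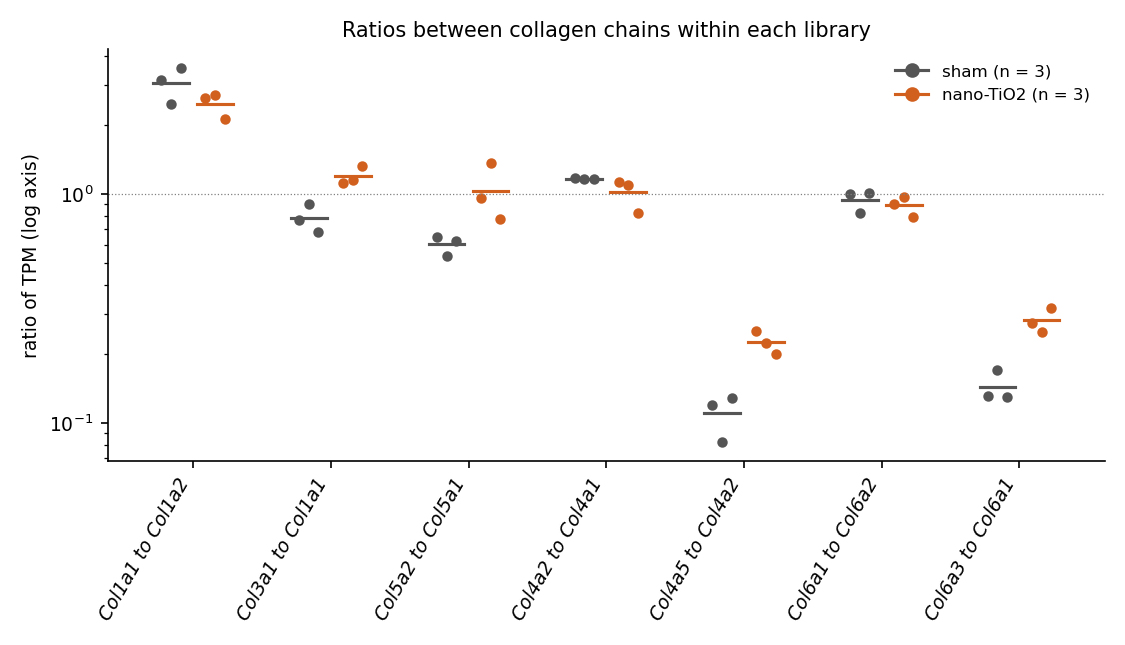
Ratio of TPM (log axis) between pairs of collagen chains, with a point for each of 3 sham and 3 nano-TiO2 libraries and a bar for the group mean. Col3a1 to Col1a1 lies below 1 in the sham points and above 1 in the nano-TiO2 points, while Col1a1 to Col1a2 and Col6a1 to Col6a2 overlap.

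That pattern runs through the whole family. Across the 37 tested collagens the log2 fold change fell with GC content (Pearson's r = -0.52, Spearman's rho = -0.62), and across all 13928 tested genes it did so as well (r = -0.47, rho = -0.57). It also rose with the log2 of transcript length, in the collagens (r = 0.33, rho = 0.41) and across all tested genes (r = 0.51, rho = 0.56). These are descriptions across genes of the same 6 libraries, and genes are not independent replicates. Of the 16 tested collagens under 55% GC, 15 had a log2 fold change above 0 (median 0.37, 3 called higher and 0 lower). Of the 21 at or above it, 14 were below 0 (median -0.29, 1 called higher and 3 lower). The 55% line was chosen after the values were seen. Once a smooth trend over transcript length and GC content had been fitted to every library and removed, 0 of the 37 collagens were called. Of all tested genes 1.74% were, 0.388% higher and 1.35% lower. For the 37 collagens the unadjusted p under 0.05 gave 1 higher and 6 lower, beside 1052 higher and 1766 lower of all 13928 tested genes. The median of the collagens was then -0.17, and their correlation was r = -0.03 with GC content and r = -0.12 with length.

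Removing that trend changed the called members unequally. Col4a5 went from 0.60 to 0.04 and Col12a1 from 0.82 to 0.06, and Col3a1, which had not been called, from 0.31 to 0.00. Col4a4 went from 1.36 to 0.71 (adjusted p = 0.332 by edgeR). Col4a2 was -0.56 ± 0.16 (SE, adjusted p = 0.088), Col5a1 -0.62 ± 0.15 (SE, adjusted p = 0.067) and Col6a1 -0.37 ± 0.18 (SE, adjusted p = 0.301), all by edgeR. Col5a2, which had not been called, changed sign from 0.35 to -0.35 (adjusted p = 0.177 by edgeR) and then lay on the same side as Col5a1. Col7a1 kept most of its size, at 1.89 ± 0.61 (SE, adjusted p = 0.124 by edgeR). From the reads of the series table, edgeR called Col3a1, Col4a4, Col4a5, Col7a1 and Col12a1 higher, 5 in all, and 0 lower, against 26.8% of all genes tested there, 16% higher and 10.8% lower. The unadjusted p under 0.05 gave 10 of 37 collagens higher and 2 lower, beside 3778 higher and 3154 lower of the 16785 genes tested there.

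**Figure D4:**
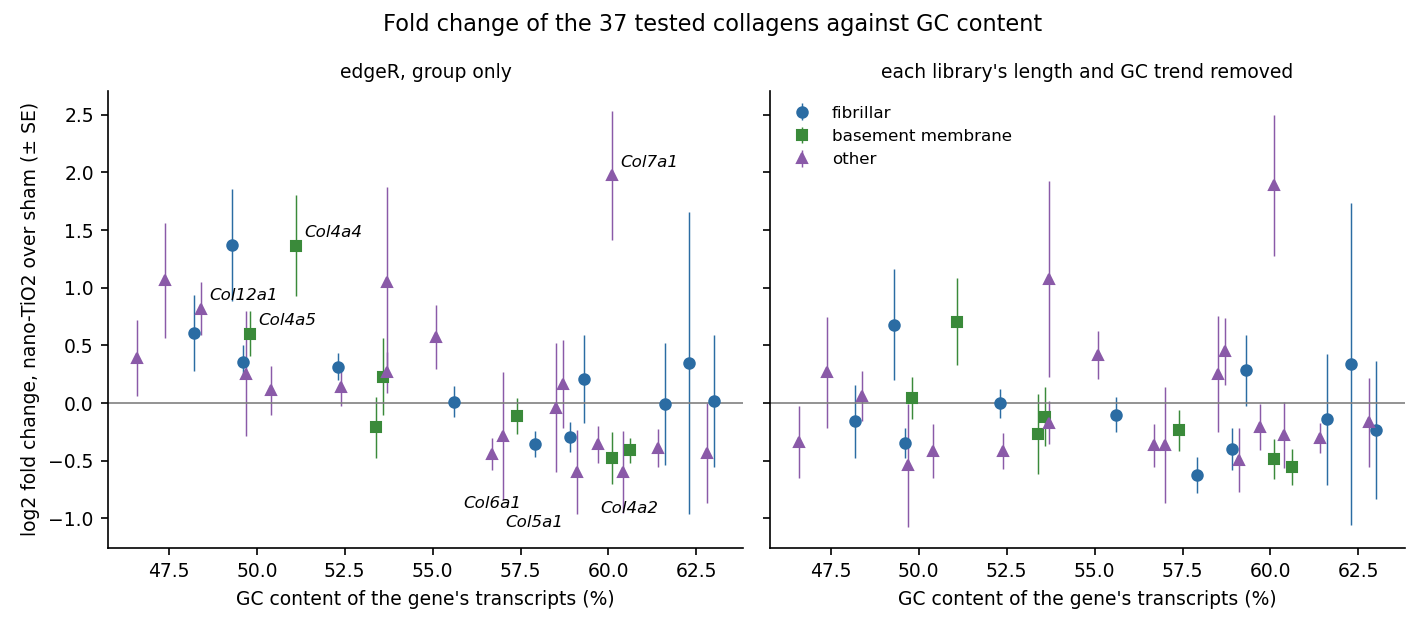
Log2 fold change (nano-TiO2 over sham, ± SE) of the 37 tested collagens against the GC content of their transcripts (%), in the edgeR fit with group as the only term (left) and after removal of a length and GC trend per library (right). Called genes are named. The slope on the left (r = -0.52 across genes) is near level on the right (r = -0.03), where 0 are called.

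The calls also depended on single libraries. When each library was left out in turn, the adjusted p (edgeR) ranged from 0.054 to 0.075 for Col12a1, 0.070 to 0.135 for Col7a1, 0.060 to 0.207 for Col5a1 and 0.062 to 0.169 for Col6a1, so that these calls were lost in all 6 fits. It ranged from 0.034 to 0.135 for Col4a2, which passed without nano-TiO2 library 2, from 0.020 to 0.150 for Col4a4, which passed without sham library 1, and from 0.027 to 0.134 for Col4a5, which passed without sham library 3. None of the 7 changed sign in these fits. The share called over all tested genes moved as well, from 28.2% with all 6 libraries. It was 14.1%, 9.98% and 23.3% without sham libraries 1, 2 and 3. Without nano-TiO2 libraries 1, 2 and 3 it was 9.01%, 29.9% and 11.3%. Without nano-TiO2 library 2, calls were gained as lower by Col18a1, by Col26a1 at -1.10 (adjusted p = 0.022) and by Col9a2 at -1.12 (adjusted p = 0.026, both by edgeR), where the fits on all libraries gave -0.60 and -0.43. Without sham library 2 and nano-TiO2 library 3 together, 0 collagens and 0 of all genes were called, and the unadjusted p under 0.05 gave 3 collagens higher and 2 lower.

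The series table also shows where along the genes the signal changed. It gives read signal in steps of about 25 bases, scaled by the authors, and each gene's bins were cut into 3 equal parts in the direction of transcription. For the 15 collagens with a mean summed signal of at least 500, the log2 ratio of nano-TiO2 to sham was higher in the last part than in the first in 14, and equal at 2 decimals in Col16a1, against 64.8% of 5486 genes of that signal with at least 30 bins. The medians were -0.34 in the first part, -0.27 in the middle and -0.04 in the last, where those genes had -0.24 in the first and -0.16 in the last. Col4a1 went from -0.34 to 0.06, Col15a1 from -0.43 to -0.04 and Col5a1 from -0.50 to -0.15. In its last part Col4a1 had a signal of 2907, 3288 and 3018 in sham hearts and 2365, 2776 and 4464 in nano-TiO2 hearts. Only nano-TiO2 library 3 lay above the sham libraries there, and the other nano-TiO2 libraries lay below them. Col4a5 was higher throughout, from 0.46 in the first part to 0.82 in the last. The mean share of signal in the last part was higher in nano-TiO2 hearts for 15 of the 15 collagens, against 65.3% of those genes, but for 0 of the 15 did the groups' libraries separate, beside 12.5% of those genes. In Col4a1 that share was 55.2%, 64.8% and 53.9% in sham and 57.8%, 57.9% and 70.5% in nano-TiO2 hearts. In Col1a1 it was 33.5%, 43.5% and 32.2% against 34.1%, 33.4% and 44.1%. Sham library 2 and nano-TiO2 library 3 thus stood above the other libraries of their groups in both genes.

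**Figure D5:**
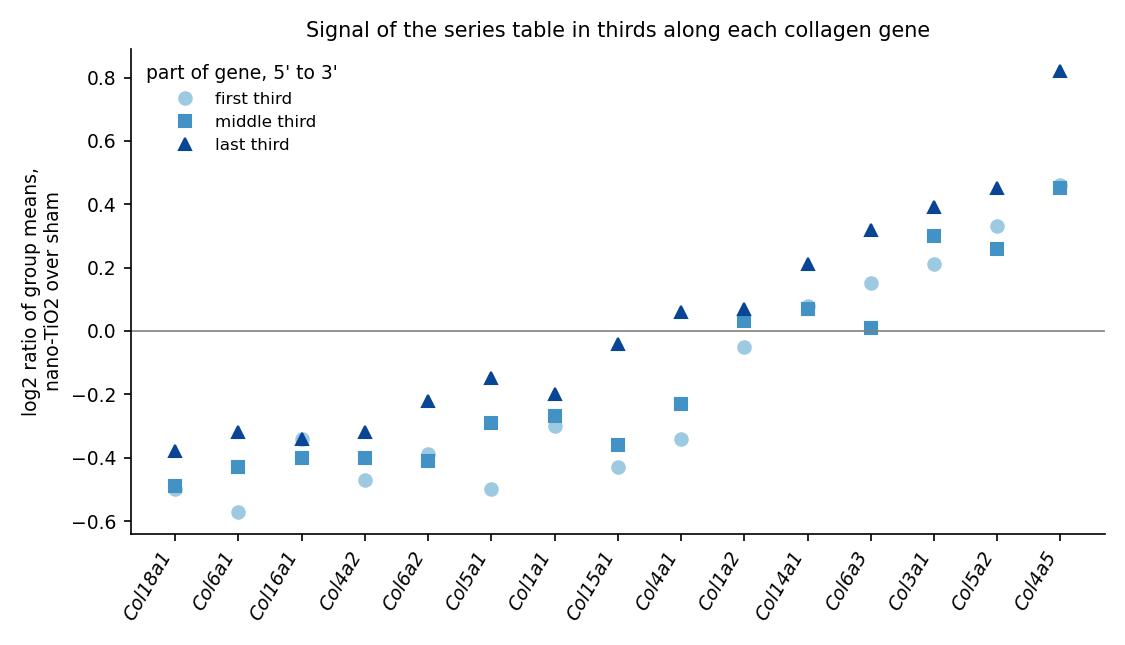
Log2 ratio of group mean signal, nano-TiO2 over sham, in the first, middle and last of 3 equal parts of the bins of 15 collagen genes, ordered by their ratio over the whole gene. The last part lies above the first in 14 genes, as in Col4a1, which goes from -0.34 to 0.06. In the last part of Col4a1 only nano-TiO2 library 3 lies above the sham libraries.

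For most abundant collagens 1 transcript held nearly all reads. It held at least 99.1% of the estimated reads of Col1a1, Col1a2, Col4a2, Col5a2 and Col6a1 in each library. For Col6a3 its share was 92.8% ± 0.968 in sham and 89.5% ± 1.40 in nano-TiO2 hearts (SD, n = 3 each). For Col4a5 the share was 58.4% ± 11.2 against 44.2% ± 17.9 (SD, n = 3 each), and the groups overlapped.

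Collagen chains need modifying enzymes, chaperones, processing enzymes and receptors, and 80 such partner genes were listed by function. Of the 75 tested, 11 were called higher and 4 lower, or 20.0% against 28.2% of all tested genes, and their median log2 fold change was 0.10. By list, 37.5% of the tested receptors were called, 26.7% of the genes of prolyl and lysyl modification, and 7.14% to 20.0% in the other lists. Each list held only 7 to 15 tested genes. Among 15 genes of prolyl and lysyl modification, enzymes and their partners, 2 rose and 2 fell. The prolyl hydroxylase subunit P4ha3 rose from 3.61 to 4.77 CPM in sham to 6.87 to 7.77 CPM in nano-TiO2 hearts (log2 fold change 0.81, adjusted p = 0.027 by edgeR). It was the one partner gene called with the length and GC trend removed, at 1.07 (adjusted p = 0.046 by edgeR). Plod2, which hydroxylates the lysines of telopeptides, rose by 0.81 on the log2 scale (adjusted p = 0.015 by edgeR), and was 0.22 with the trend removed. Plod1, which hydroxylates helical lysines, was lower at -0.51 and Ppib, the prolyl isomerase of the endoplasmic reticulum, at -0.41 (adjusted p = 0.024 and 0.036 by edgeR), and on the log2(TPM + 1) scale they were 0.17 and 0.25, below the 0.47 of the median gene.

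Among 10 chaperones and export factors 2 rose and 0 fell, Mia3, which loads procollagen into large carriers, by 0.91 and the isomerase Fkbp14 by 0.60, and with the trend removed they were 0.35 and 0.16. Tmem38b and Mia2 in the same list had 0.45 and 0.84 and did not pass. Of 11 tested processing and crosslinking genes 1 rose and 1 fell. Lox, the oxidase that crosslinks fibrils, had 11.6, 6.66 and 9.57 CPM in sham hearts and 18.5, 24.1 and 24.5 CPM in nano-TiO2 hearts, a difference of 1.26 ± 0.23 on the log2 scale (SE, adjusted p = 0.0098 by edgeR). All nano-TiO2 libraries were above all sham libraries, and with the trend removed the value was 0.55 (adjusted p = 0.258). Pcolce, which speeds removal of the C-propeptide, had 234, 231 and 235 CPM against 163, 164 and 177 CPM (log2 fold change -0.47, adjusted p = 0.016 by edgeR), and was 0.19 on the log2(TPM + 1) scale, below the median gene there. Loxl2 and Tll1 did not pass, at 0.37 and 1.62.

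Of 8 tested receptors 2 rose and 1 fell. The integrin chain Itga1 rose by 1.09 and the discoidin receptor Ddr2, found on fibroblasts, by 1.03, while Ddr1, found on epithelium, was lower at -0.54 (adjusted p = 0.022, 0.029 and 0.026 by edgeR) and 0.11 on the log2(TPM + 1) scale, below the median gene there. With the length and GC trend removed Itga1 was 0.00, Ddr2 0.38 and Ddr1 -0.34, and none was called. Itgb1 did not pass, at 0.51. Of 7 tested turnover genes 1 rose, the matrix-bound protease inhibitor Timp3, by 0.79 (adjusted p = 0.010 by edgeR), and Mmp2, Mmp9 and Timp1 did not pass. Of 10 partners in the basement membrane 2 rose and 0 fell, the linker Nid1 by 0.66 and the laminin chain Lamb1 by 0.57, while Lamc1 at 0.33 and Lamb2 at -0.32 did not pass. With the trend removed Timp3 and Nid1 were both 0.09 and Lamb1 0.21. Of 14 interstitial matrix genes 1 rose, the fetal fibrillin Fbn2, by 0.70 (0.12 with the trend removed), and Fbn1 at 0.48, Eln at -0.80 and Fbln1 at -0.48 did not pass.

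Markers of the cells that make collagen were read in the same libraries. The 6 fibroblast markers summed to 290 to 512 CPM in sham and 281 to 457 CPM in nano-TiO2 hearts, and each had at least 1 CPM in every library, with Pdgfra called higher. The 6 endothelial markers summed to 463 to 491 CPM and 459 to 481 CPM, with Tek called higher. Without Tie1, the largest of them, the other 5 summed to 315 to 337 CPM in sham and 350 to 377 CPM in nano-TiO2 hearts, without overlap. The 6 smooth muscle and pericyte markers summed to 2375 to 2870 CPM in sham and 1647 to 1819 CPM in nano-TiO2 hearts, with Acta2 called lower. The groups did not overlap, but Acta2 made up 77.7% to 85.5% of the sum, and the other 5 markers summed to 384 to 462 CPM and 315 to 406 CPM, with overlap. Cardiomyocyte markers summed to 37422 to 42600 CPM and 27427 to 35106 CPM, without overlap, with Actc1 and Myl2 called lower, and without Actc1, the largest, the groups overlapped. The 5 epicardial markers summed to 161 to 202 CPM in sham and 179 to 201 CPM in nano-TiO2 hearts, with overlap. Of these, Tbx18 was called higher, and its own groups were apart, at 7.51 to 13.8 CPM and 17.4 to 23.5 CPM. Hepatocyte markers were highest in sham library 2, at 733 CPM against 2.79 to 58.7 CPM elsewhere. Lung markers summed to 13.03 to 138 CPM in sham and 0.304 to 1469 CPM in nano-TiO2 hearts, bone markers to 0.299 to 14.2 CPM and 0.182 to 1.28 CPM, and skeletal muscle markers to 12.1 to 16.03 CPM and 5.29 to 34.1 CPM, with overlapping groups in each. The Schwann cell and neural crest markers summed to 0.823 to 1.12 CPM and 1.86 to 2.49 CPM. The part of these shifts in the collagen values was not tested.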

How the data were processed

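For each library the authors deposited estimated counts of reads and TPM values per transcript, in Salmon's format per the file headers. The series table holds a signal per bin that the authors scaled by a size factor for each library. Undoing that factor gave whole reads for 100% of values (tolerance 0.001). Salmon 1.5.2, HISAT2 2.2.1, DESeq2 1.34.0 and the build GRCm39 are named, without roles, per the submitters' processing notes, and the strand setting is not given in the sources used here. Of 116747 transcripts 115636 matched GENCODE M21, a GRCm38 annotation, so gene coordinates are not given, and 1111 were left out. GC content and coding sequences came from that annotation.

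The estimated counts of a gene's transcripts were added up and rounded to whole reads. The main test was edgeR 4.0.16 (quasi-likelihood, robust, group as the only term, TMM, filterByExpr) over 13928 genes in R 4.3.3, checked on simulated data, with a biological coefficient of variation of 23.9%. Alternatives used limma 3.58.1 on log2(TPM + 1) and log2(TPM + 0.1) with a mean TPM of at least 1, limma-voom, DESeq2 1.42.0, other scalings and filters, and a trend over length and GC content per library fitted with mgcv 1.9.3 and used as an offset. Groups and replicate numbers came from the titles. No pair of libraries within a group agreed within counting noise. Named genes are the collagens, in full where called or at a mean of at least 50 CPM, and up to 4 partner genes with the smallest p in each list. The members, lists and markers were chosen with earlier results of these data known.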

Additional observations from a re-analysis of the deposited data

How the results depend on the processing

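The counts of collagens called were 0 higher and 1 lower (fibrillar), 2 and 1 (basement membrane) and 2 and 1 (other), and 11 and 4 for partner genes. With library totals only they were 4 and 0, 2 and 0, 5 and 0, and 25 and 0. On log2(TPM + 1) they were 3 and 0, 1 and 0, 4 and 0, and 32 and 0, and on log2(TPM + 0.1) they were 3 and 0, 1 and 0, 4 and 0, and 31 and 0. The TPM fits tested fewer genes, 7, 6, 14 and 66 of these lists against 11, 7, 19 and 75 in the main fit. Of all genes tested 38.1% were called on log2(TPM + 1) and 37.7% on log2(TPM + 0.1), against 28.2% in the main fit. The share of higher calls among all calls moved from 54.7% to 98.8% with library totals only and to 99.6% on log2(TPM + 1), scales on which the median gene shifts by 0.41 and 0.47 (0.56 on log2(TPM + 0.1)). With length-scaled TPM counts the counts called were 0 and 0, 1 and 0, 1 and 0, and 9 and 1, beside 17.5% of all tested genes. RLE size factors gave 1 basement membrane collagen higher. DESeq2 gave 1 other collagen higher and 7 partner genes lower. With no filter 0 fibrillar and 0 other collagens were lower and 1 other collagen was higher, and the stricter filter also gave 1 other collagen higher. Of all tested genes 28.5% were called with RLE, 20.6% with DESeq2, 15.8% with no filter and 30.7% with the stricter filter. The series table gave 1 fibrillar collagen higher and 0 collagens lower in each class. With the length and GC trend removed all collagen counts were 0, with 1 partner gene higher and 0 lower. With the trend removed from the series table, an alternative chosen after seeing the data, they were 0 as well, with 1 partner gene higher and 1 lower. Without sham library 2 and nano-TiO2 library 3 all 8 counts were 0. Leaving out each library in turn gave 0 to 0 fibrillar collagens higher and 0 to 0 lower, 0 to 1 and 0 to 2 basement membrane collagens, 0 to 0 and 0 to 2 others, and 4 to 12 and 0 to 14 partner genes. Of all tested genes 9.01% to 29.9% were called in those fits. The cause of these changes was not tested.

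Deviations of same-numbered libraries from their group means correlated at -0.39, 0.022 and -0.081, and those of differently numbered libraries at -0.415 to 0.481. The highest was for sham library 3 with nano-TiO2 library 1. These values show no pairing by replicate number, and they cannot tell whether libraries were paired by design. With the replicate number as a block, 0 collagens were called in any class, 6 and 6 passed an unadjusted p under 0.05 (higher and lower), and 8 partner genes were called higher and 0 lower. Of all tested genes 14.8% were called in that fit. The block with the trend removed gave 0 for all lists, beside 0.33% of all tested genes.

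Signs turned for some called genes, and the values on the scales of totals and TPM all lie below the median gene of their scale. In library totals only Col4a2 was 0.01, Col5a1 0.06 and Ppib 0.02. On log2(TPM + 1) Col4a2 was 0.26, Col5a1 0.21, Col6a1 0.22, Ppib 0.25, Plod1 0.17, Pcolce 0.19 and Ddr1 0.11, and on log2(TPM + 0.1) 0.27, 0.22, 0.23, 0.25, 0.17, 0.19 and 0.11. With the trend removed Ppib was 0.02 and Pcolce 0.07, with the block as well 0.01 and 0.07 and Itga1 -0.0, and in the series table without the trend 0.01, 0.02 and -0.03. Over all named genes and alternatives 1114 values kept their sign and side of the threshold, 200 lost the threshold, 62 gained it and 25 changed sign. Collagens with fewer than about 1 CPM rest on few reads, so their values are limited by depth.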
